A study of Mus musculus with 16 samples.

Results

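Of 38304 cells deposited as CD8+ T cells from the 1-week recipient spleen, the 3-week recipient spleen, the 1-week accepted kidney allograft and the matrix labelled 24-week kidney, 10529 (27.5%) had no raw transcript count of Cd8a, Cd8b1 or Cd4. These CD4/CD8-negative cells were picked by that count alone, so the word negative means that no unique molecular identifier (UMI, 1 captured transcript) of the 3 genes was read, not that the protein was absent. They were compared, within each library, with 23892 cells that had a UMI of Cd8a or Cd8b1 (CD8-UMI cells) and with 3883 cells that had a UMI of Cd4 and none of the CD8 genes (Cd4-UMI cells). The cells with no UMI came as 5207 from 3 libraries of the 1-week spleen, 1927 from 5 libraries of the 3-week spleen, 1306 from 3 libraries of the matrix labelled 24-week kidney and 2089 from 3 libraries of the 1-week kidney. All 9 matrices of CD8+ T cells in the series together held 72639 cells.

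In the study, kidneys of DBA/2J mice were transplanted into fully mismatched male wild-type C57BL/6J recipients, whose own kidneys were removed in the same operation. These grafts were accepted without immunosuppression, and graft and recipient spleen were taken 1, 3 or 24 weeks later. The rejecting matrices of the series, used below for shares only, came from the reverse pair, C57BL/6 kidneys in DBA/2J recipients. Viable CD45+ leukocytes were sorted from collagenase-digested kidney or mechanically dispersed spleen and profiled by droplet-based 3′ single-cell RNA sequencing. The CD8+ T cell matrices hold cells that were assigned to that class by expression clusters, and no antibody to CD8 or CD4 was used in the sort. Every cell in these comparisons came from an accepted graft or its recipient, and each library was taken as 1 mouse. The labels do not say whether a graft and a spleen library of the same week came from the same recipient. Tests over libraries counted such libraries as separate, so they may not be independent.

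CD8 is the coreceptor of class I-restricted T cells, and on conventional alpha-beta T cells it is a pair of the Cd8a and Cd8b1 products, whereas CD4 marks class II-restricted helper and regulatory T cells. T cells that carry neither coreceptor are also known: most gamma-delta T cells, which use the constant chains Trdc and Tcrg in place of Trac and Trbc, and many invariant natural killer T cells, which depend on the transcription factor PLZF, encoded by Zbtb16. Natural killer (NK) cells have no T cell receptor on their surface and in C57BL/6 mice express NK1.1, encoded by Klrb1c. In droplet data a cell of the CD8 or CD4 lineage can also lack these transcripts because only a part of its RNA is captured.

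Among the 4 matrices, with cells of all depths together, the share of CD4/CD8-negative cells was highest in the 1-week spleen and lowest in the 1-week kidney. The place of the 1-week spleen did not hold at every depth, as given below. In the 3 libraries of the 1-week spleen it was 44.9%, 47.9% and 37.3%. In the 5 of the 3-week spleen it was 30.8%, 29.9%, 34.6%, 33.3% and 34.8%. In the matrix labelled 24-week kidney it was 34.5%, 34.7% and 28.1%, and in the 1-week kidney 13.2%, 6.55% and 14.6%. The spleen libraries did not overlap with those of the 1-week kidney. Among the matrices that the rule left out, the pooled share was 2.87% in the 3-week kidney, 4.91% in the matrix labelled 24-week spleen, 3.08% in naive spleen and 22.8% in the rejecting kidney at 1 week. In the rejecting spleen it was 0 of 726 cells, all of which had a CD8 UMI, and neither rejecting matrix held a Cd4-UMI cell. Were these cells a random draw, 0 would allow a share of up to 0.413% (3 counts of the total). Whether they had been selected on CD8 or Cd4 counts before deposit was not tested, so the limit may not apply. The 4 matrices were chosen with these shares known, so no test was made of them.

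Kidney transcripts ran opposite to the tissue labels of the 24-week matrices. A list of 18 genes of kidney tubules, whose RNA leaks into suspensions of digested kidney, reached 0.260 to 0.361 CPM (counts scaled to a common library total) in the libraries labelled 24-week kidney. In those labelled 24-week spleen it reached 5.89 to 7.51 CPM, in the 1-week kidney 1.56 to 6.65 CPM and in the 3-week kidney 8.68 to 16.2 CPM. The levels of the libraries labelled 24-week kidney thus lay among those of the spleens (0 to 1.05 CPM, over the 6 or 7 listed genes those matrices hold). Results of this matrix are therefore given under its label, and no test between tissues or times uses it. The tests of shares below pool its 3 libraries with the other 11, and each call held with the 11 alone. Droplet barcodes were shared by 61 of 91 pairs of libraries, by at most 13 cells, or 0.426% of the smaller library. Total counts ran from 3820842 to 25960721 UMIs per library, and the negative cells contributed 578401 to 4491421 of them.

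The negative cells were shallower than the CD8-UMI cells of the same matrix, a property tied to the rule, since a cell with fewer captured molecules is more likely to lack 3 given genes. The median depth of negative and CD8-UMI cells was 2142 and 2896 UMIs in the 1-week spleen, 3106 and 4187 in the 3-week spleen, 3919 and 5066 in the matrix labelled 24-week kidney, and 1712 and 2712 in the 1-week kidney. The Cd4-UMI cells lay between them at 2558, 3327, 4230 and 2582 UMIs. The share of negative cells was lowest among the deepest cells of each matrix, but a part remained there. In the 1-week spleen it was 81.8% below 1000 UMIs and 22.2% (95% exact binomial interval 19.7% to 24.9%) at 5000 UMIs or more. Over the same depths it went from 77.4% to 12.6% in the 3-week spleen. At 5000 UMIs or more it was 19.4% in the matrix labelled 24-week kidney and 2.79% in the 1-week kidney. Between 2000 and 3000 UMIs it was 43.3% in the 1-week spleen, 45.7% in the 3-week spleen, 60.3% in the matrix labelled 24-week kidney and 10.8% in the 1-week kidney. Between 3000 and 5000 UMIs it was 29.5%, 30.3%, 35.4% and 6.97% in the same order. The 1-week spleen was thus not the highest at these depths. Such intervals cover counting error only.

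**Figure D1:**
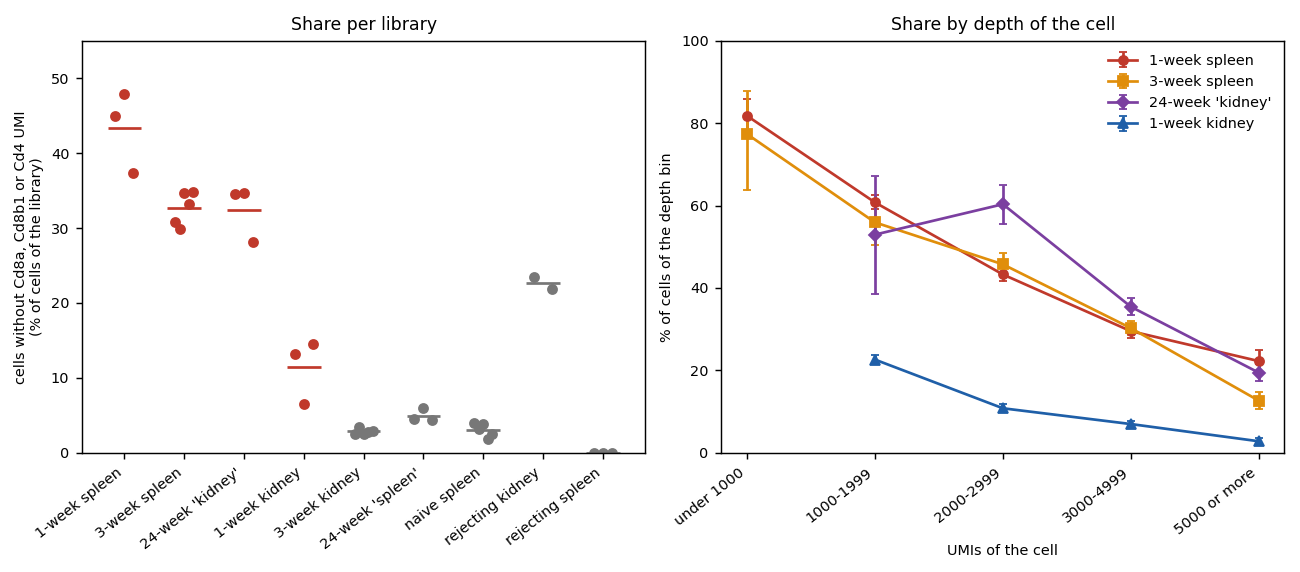
Left, share of cells without a UMI of Cd8a, Cd8b1 or Cd4 (vertical axis, percent of cells) in each library of the 9 matrices of CD8+ T cells (horizontal axis), with the 4 described matrices in red, the others in grey and a bar at the mean of libraries. Right, the same share of the 4 matrices by UMIs per cell, with 95% exact binomial intervals. The 1-week spleen libraries (37.3% to 47.9%) lie above those of the 1-week kidney (6.55% to 14.6%), and in each of the 4 matrices the share is lowest at 5000 UMIs or more.

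Cells on either side of the threshold are given as a description. In the 1-week spleen, an Nkg7 UMI was found in 35.0% of negative cells, 67.6% of cells with 1 CD8 UMI, 75.6% with 2 and 83.3% with 3 or more. Trdc was found in 5.36%, 3.04%, 1.94% and 1.27% of the same classes. The class with 1 CD8 UMI thus lay between the negative and the well-covered CD8 cells of this matrix for both genes. These shares are unthinned, and the median depth also rose over the 4 classes, at 2142, 2518, 2653 and 3086 UMIs. The rise of Nkg7 therefore ran with depth. In the 1-week kidney Trdc was found in 2.11%, 0.346%, 0.333% and 0.427% of the same classes, so the class with 1 CD8 UMI was not intermediate for Trdc there. Nkg7 was found in 77.5%, 92.1%, 94.4% and 98.2%.

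Nearly all negative cells carried T cell transcripts. Cd3d, Cd3e and Cd3g encode the CD3 chains that signal for every T cell receptor. With every cell reduced by random draws to 1000 of its UMIs (thinned), a UMI of at least 1 of them was found in 85.1% of negative and 86.4% of CD8-UMI cells in the 1-week spleen, 80.4% and 80.3% in the 3-week spleen, 85.4% and 86.6% in the matrix labelled 24-week kidney, and 91.3% and 95.6% in the 1-week kidney. Without thinning it was found in 96.0%, 98.1%, 99.2% and 95.6% of negative cells. In B cells of naive spleen, which should lack these genes and served to gauge free RNA, Cd3e was found in 1.36% of 14950 cells at a median of 3176 UMIs. A UMI of Trac, Trbc1 or Trbc2, the constant chains of the alpha-beta receptor, was found in 88.6%, 89.5%, 91.0% and 90.8% of thinned negative cells in the same order.

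Over the 14 libraries Cd3e was found in 33.1% of thinned negative cells and 33.8% of CD8-UMI cells, a difference of -0.674 percentage points that was positive in 7 and negative in 7 libraries (exact sign-flip permutation test, two-sided, adjusted p = 0.527 over 6 genes). Without thinning the difference was -10.8 points, in the direction of the depth gap. In the 1-week kidney all 3 libraries were lower, at 42.1%, 38.9% and 36.1% against 50.3%, 45.3% and 39.2%.

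Trdc, the constant chain of the delta receptor, was found in a larger share of negative cells in 14 of 14 libraries. In the 1-week spleen the thinned share was 3.89%, 3.97% and 4.79%, against 0.843%, 0.715% and 1.08% of CD8-UMI cells. In the 3-week spleen it was 8.78%, 6.56%, 6.77%, 8.55% and 7.58%, against 0.655% to 1.84%. It reached 7.35%, 8.80% and 6.77% in the matrix labelled 24-week kidney and only 1.50%, 2.02% and 1.63% in the 1-week kidney, where CD8-UMI cells had at most 0.214%. In each of these matrices the groups of libraries did not overlap. The mean was 5.64% against 0.891%, a difference of 4.75 points (SD 2.33, n = 14, exact sign-flip permutation test, adjusted p = 0.000732, from a raw p of 0.000122 that is the smallest this test can give), and B cells of naive spleen had Trdc in 0.0736%. Most of these cells had no Trac UMI at that depth, since cells with Trdc and without Trac made up 3.76%, 6.89%, 7.12% and 1.53% of negative cells in the 4 matrices. The share was 5.36%, 10.9%, 10.8% and 2.11% without thinning.

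Klrb1c was found in 2.81% of thinned negative and 0.321% of CD8-UMI cells, a difference of 2.48 points that was higher in 13 of 14 libraries (exact sign-flip permutation test, adjusted p = 0.000732). The exception was the second 1-week kidney library, with 0 of its 198 negative cells, which allows a share with a UMI at that depth of up to 1.52%, against 0.110% of CD8-UMI cells. NK1.1 marks both NK and NKT cells, and in the first 3 matrices most negative cells with Klrb1c carried CD3. Cells with Klrb1c and no CD3 UMI made up 0.444%, 0.583%, 0.383% and 0.862% of thinned negative cells in the 4 matrices, where Klrb1c in all was 3.43%, 3.18%, 3.52% and 1.58%, so that in the 1-week kidney more of them lacked CD3 than carried it. Unthinned, Klrb1c was found in 6.16%, 7.16%, 9.04% and 2.63% of negative cells, and B cells of naive spleen had it in 0.194%.

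Zbtb16 was rarer, in 0.893% of thinned negative and 0.0266% of CD8-UMI cells on average, and was higher in 12 of 14 libraries (difference 0.866 points, exact sign-flip permutation test, adjusted p = 0.000977). It was found in 0.572%, 0.688% and 0.761% of negative cells in the 1-week spleen, and in 1.57%, 1.57%, 1.69%, 1.97% and 0.978% in the 3-week spleen, against 0 of 7987 thinned CD8-UMI cells of those 8 libraries, which allows up to 0.0376% of cells with a UMI at that depth. Such a limit holds for detection in thinned cells, not for expression, and those cells held some Zbtb16 UMIs before thinning, as given with the sums. Only 1 of 3 libraries of the 1-week kidney had it, at 0.0816%. Trdc, Klrb1c or Zbtb16 together were found in 8.02%, 11.6%, 11.3% and 3.16% of thinned negative cells, and in 12.2%, 19.3%, 18.8% and 4.45% without thinning.

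Cd79a, a chain of the B cell receptor, was found in 12.8%, 18.2% and 9.44% of thinned negative cells of the 1-week spleen, beside 11.4%, 15.7% and 7.64% of CD8-UMI cells, and was higher within each of the 3 libraries (mean difference 1.87 points, SD 0.527, n = 3). Over 14 libraries the difference was 0.298 points (exact sign-flip permutation test, adjusted p = 0.527) and without thinning -0.936 points. No doublet caller was run, and the part of doublets or free RNA in these UMIs was not tested. Lyz2, the lysozyme of myeloid cells, was 0.522 points higher in thinned negative cells (10 libraries higher and 1 lower, exact sign-flip permutation test, adjusted p = 0.0146), but the difference was 0.204 points at 500 UMIs (adjusted p = 0.385 by the same permutation test), 0.309 points among cells of at least 3000 UMIs (adjusted p = 0.291) and -0.0733 points without thinning. Without the third 1-week kidney library it was 0.280 points. Its largest shares were in the 1-week kidney, at 6.32%, 4.04% and 11.1% of negative cells against 5.97%, 2.57% and 7.42%.

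**Figure D2:**
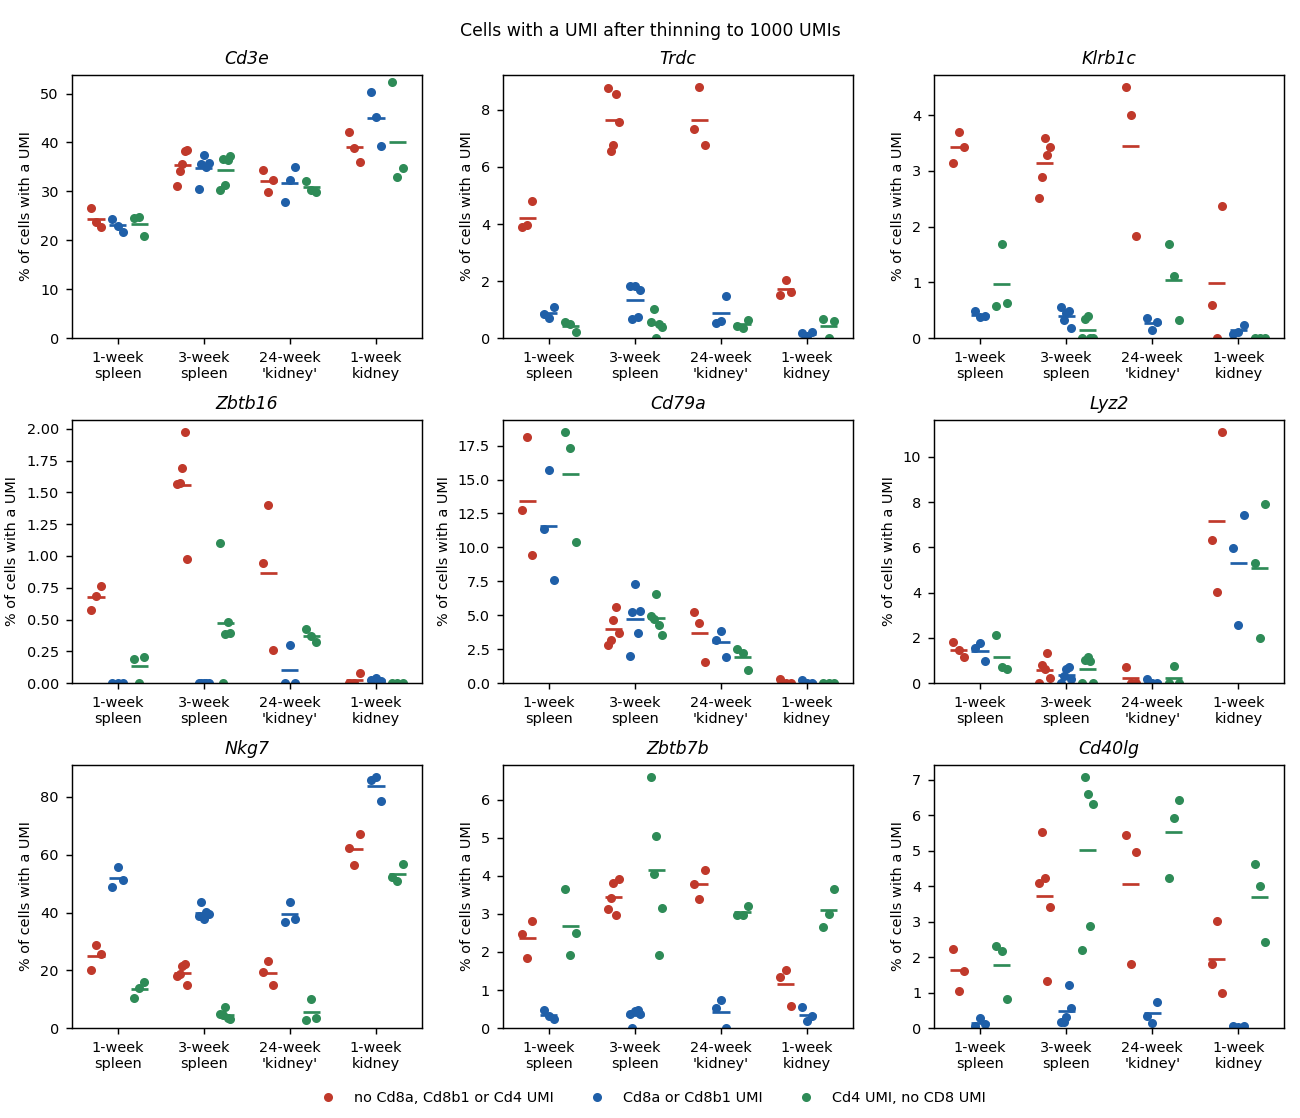
Share of cells with a UMI of Cd3e, Trdc, Klrb1c, Zbtb16, Cd79a, Lyz2, Nkg7, Zbtb7b and Cd40lg (vertical axes, percent, each cell thinned to 1000 UMIs) in negative, CD8-UMI and Cd4-UMI cells of the 4 matrices. Each point is 1 library, and bars are means of libraries. For Trdc the negative cells lie above the CD8-UMI cells in 14 of 14 libraries.

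The larger remainder of negative cells had none of Trdc, Zbtb16 or Klrb1c. Over all negative cells, Nkg7, a granule gene of cytotoxic lymphocytes, was read less often than in CD8-UMI cells. After thinning it was found in 24.9% of negative and 52.1% of CD8-UMI cells of the 1-week spleen, 19.0% and 40.0% of the 3-week spleen, 19.6% and 39.6% of the matrix labelled 24-week kidney, and 64.5% and 82.4% of the 1-week kidney. Cells with neither Nkg7 nor any of the 3 innate genes made up 72.0%, 75.9%, 75.0% and 34.6% of negative cells. At this depth Nkg7 went unread in many CD8-UMI cells too, so these shares do not count cells that lack its expression. Zbtb7b, which encodes the transcription factor ThPOK of the CD4 lineage, or Cd40lg, the CD40 ligand of helper T cells, was found in 3.92% of thinned negative and 0.497% of CD8-UMI cells of the 1-week spleen. In the other matrices it was 6.95% and 0.763%, 7.50% and 0.838%, and 2.35% and 0.423%, in the same order. B cells of naive spleen had Zbtb7b in 1.87% and Cd40lg in 0.0803%. Those values are for each gene alone in unthinned cells, so they are not directly comparable with the thinned shares of the pair.

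UMIs were then summed over the cells of each population in each library and compared gene by gene. Negative and CD8-UMI cells differed in 1972 of 10477 genes tested in the 1-week spleen (18.8%; 1493 or 14.3% higher and 479 or 4.57% lower in negative cells), 1826 of 8377 in the 3-week spleen (21.8%; 1458 or 17.4% and 368 or 4.39%), 1460 of 8896 in the matrix labelled 24-week kidney (16.4%; 1169 or 13.1% and 291 or 3.27%) and 652 of 8160 in the 1-week kidney (7.99%; 379 or 4.64% and 273 or 3.35%), by edgeR's quasi-likelihood test at an adjusted p under 0.05. Cd8a, Cd8b1 and Cd4 were left out. The sums were scaled by plain totals, under which the median log2 difference over all genes was 0.10, 0.12, 0.13 and -0.01. With trimmed mean of M-values (TMM) scaling, which removes such a shift, the calls were 757 higher and 819 lower, 639 and 675, 515 and 518, and 412 and 234. The excess of higher over lower genes in the first 3 matrices was not seen with that scaling. Leaving out 1 library at a time gave 1252, 1313 and 1273 calls in the 1-week spleen, 822 without the second library labelled 24-week kidney, and 288 and 329 without the first and the third 1-week kidney libraries. In such sums, fewer cells that express a gene and less RNA of it per cell cannot be told apart.

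Against the Cd4-UMI cells fewer genes differed in the first 3 matrices: 760 (7.25%), 418 (4.99%), 379 (4.26%) and 606 (7.43%). Without negative cells that held Trdc, Zbtb16 or Klrb1c, the calls were 81 in the 3-week spleen and 70 in the matrix labelled 24-week kidney. This setting was added after the data were seen and left out negative cells only, not Cd4-UMI cells with these genes. The shares of genes tested are not given for it, so the counts do not measure how alike the populations are. Those counts speak for these matrices only, and the counts of the 1-week spleen and 1-week kidney under this exclusion are not given here. By direction, 234 (2.23%) were higher and 526 (5.02%) lower in negative cells of the 1-week spleen, 296 (3.53%) and 122 (1.46%) in the 3-week spleen, 302 (3.39%) and 77 (0.866%) in the matrix labelled 24-week kidney, and 219 (2.68%) and 387 (4.74%) in the 1-week kidney. These splits became, with TMM scaling, 328 and 286, 249 and 158, 232 and 146, and 315 and 191. The calls fell to 412 and 337 without the second and the third 1-week spleen libraries, 232 and 217 without the first and second labelled 24-week kidney, and 221 and 387 without the first and the third of the 1-week kidney. The Cd4-UMI cells were fewer than the negative cells in every matrix, at 1444, 1207, 817 and 415 cells, and the numbers of calls were not tested against each other.

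Gamma-delta genes were higher in negative cells of 3 matrices. All 5 tested genes of that list (of 8 named) were higher in negative than in CD8-UMI cells of both spleens and of the matrix labelled 24-week kidney, with median log2 differences of 2.37, 2.78 and 3.26. Trdc read 61.7, 63.7 and 57.2 CPM in negative cells of the 1-week spleen and 8.27, 9.35 and 16.1 CPM in CD8-UMI cells, without overlap (log2 fold change 2.37, SE 0.12, edgeR adjusted p = 3.85e-21). In the 3-week spleen it was 147, 106, 132, 158 and 130 CPM against 17.0, 8.34, 15.2, 21.4 and 13.7 CPM (3.17, SE 0.11, edgeR adjusted p = 6.79e-38). Tcrg-C4, a constant chain of the gamma receptor, was higher in all 4 matrices, with log2 fold changes of 3.16, 3.36, 3.44 and 1.81. Tcrg-C1 and Tcrg-C2 are near-identical copies, so the split of reads between them is uncertain.

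The 1-week kidney departed from this. Trdc was higher there too, at 24.5, 31.1 and 20.6 CPM against 2.64, 1.38 and 2.59 CPM (log2 fold change 3.36, SE 0.30, edgeR adjusted p = 3.86e-10). Tcrg-C2 and the gamma variable gene Trgv2, however, were lower in negative than in CD8-UMI cells, with log2 fold changes of -1.24 and -0.98, and Trgv2 was not called without the first kidney library (-0.88). Tcrg-C1 differed by -0.25 and was not called. Of the 5 gamma-delta genes tested, 2 were therefore higher and 2 lower.

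NK genes were higher in negative cells of every matrix. Of the genes tested, 5 of 6 passed in the 1-week spleen, 3 of 3 in the 3-week spleen, 3 of 4 in the matrix labelled 24-week kidney and 5 of 5 in the 1-week kidney, and none was lower. Their median log2 differences were 1.60, 2.13, 1.55 and 3.65 in this order, over different genes, since Ncr1 and Klra8 were not tested in the 3-week spleen. Ncr1, the NK receptor NKp46, read 12.3, 34.6 and 22.5 CPM in negative and 1.19, 0.229 and 1.54 CPM in CD8-UMI cells of the 1-week kidney (log2 fold change 4.29, SE 0.41, edgeR adjusted p = 1.21e-09). Tyrobp, the adaptor DAP12 of NK and myeloid receptors, read 72.8, 128 and 127 CPM against 21.2, 13.7 and 26.4 CPM (2.32, SE 0.15, edgeR adjusted p = 2.63e-13). Klra8, the receptor Ly49H, was 6.54, 22.5 and 14.6 CPM against 1.19, 0.688 and 0.658 CPM there, while in the 1-week spleen it was 0.668, 1.01 and 0.982 CPM against 1.29, 3.12 and 2.04 CPM and did not pass. Klra8 has close relatives in the Klra family, so its reads are uncertain.

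In the 1-week kidney the NK-rich signal differed between libraries. At least 2 genes of the NK list were found in 2.30% of thinned negative cells, from 0.602% to 3.18% by library, against 0.158% of CD8-UMI cells. Gzma, the granule protease granzyme A, read 261, 1376 and 1030 CPM in the 3 libraries of negative cells and 274, 202 and 322 CPM in CD8-UMI cells (log2 fold change 1.55, SE 0.23, edgeR adjusted p = 7.52e-06). The first library overlapped with the CD8-UMI cells. Fcer1g, an adaptor of NK and myeloid cells, was higher by 0.74 on the log2 scale but not without the third library (0.18, edgeR adjusted p = 0.57), and its direction turned to -0.19 without cells with Trdc, Zbtb16 or Klrb1c. It was higher by 2.16, 2.65 and 2.22 in the other 3 matrices.

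Zbtb16 read 8.46, 8.37 and 4.66 CPM in negative cells of the 1-week spleen, where the CD8-UMI cells held 3 UMIs in all, and 15.6, 16.0, 14.9, 16.6 and 12.2 CPM in the 3-week spleen, where they held 6 (edgeR adjusted p = 5.87e-12 and 1.49e-16). It was too low to be tested in the 1-week kidney, with 2 UMIs in all negative cells. Klrb1c was higher in all 4 matrices, with log2 fold changes of 3.00, 2.86, 3.12 and 3.65. Ly6c1, which marked negative cells of the spleens and of the matrix labelled 24-week kidney (3.73, 3.41 and 3.21), is a near-identical neighbour of Ly6c2, which was lower in negative cells of both spleens (-1.39 and -1.09), so their reads are uncertain.

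Genes of the CD4 lineage were the next group. Of 8 listed genes, 8 were higher in negative than in CD8-UMI cells of the 1-week spleen, 7 in the 3-week spleen, 4 of 7 tested in the matrix labelled 24-week kidney and 6 in the 1-week kidney, with medians of 2.01, 1.40, 1.03 and 1.03. Only Cxcr5, in the 3-week spleen, was lower. Zbtb7b read 23.2, 18.5 and 27.2 CPM in negative cells of the 1-week spleen, 5.15, 5.56 and 3.40 CPM in CD8-UMI cells, and 33.0, 22.2 and 24.6 CPM in Cd4-UMI cells. Negative and Cd4-UMI cells overlapped, and in no matrix did Zbtb7b pass between them (log2 differences -0.21, -0.42, -0.11 and -0.48). Against CD8-UMI cells it was higher by 2.35, 3.24, 3.43 and 1.71.

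Cd40lg behaved alike, with log2 fold changes over CD8-UMI cells of 3.39, 3.49, 3.94 and 3.44. Against Cd4-UMI cells it was lower in the 3-week spleen (-0.58, SE 0.16, edgeR adjusted p = 0.015), a call lost without the second or the third library (-0.48 and -0.50). In the other matrices it was -0.29, -0.43 and -0.73 and did not pass, although with TMM scaling it was called in the matrix labelled 24-week kidney (-0.50, edgeR adjusted p = 0.0437). Izumo1r, the folate receptor 4 of helper and regulatory T cells, was higher than in CD8-UMI cells by 1.77, 1.53, 1.30 and 0.91 and lower than in Cd4-UMI cells of the 1-week spleen (-0.60) and 1-week kidney (-0.72). Foxp3, the transcription factor of regulatory T cells, read 34.3, 33.2 and 43.2 CPM in negative, 6.44, 5.34 and 10.6 CPM in CD8-UMI and 53.7, 49.4 and 44.4 CPM in Cd4-UMI cells of the 1-week spleen, in this order without overlap. The difference from CD8-UMI cells was 2.24 (SE 0.14, edgeR adjusted p = 6.40e-18), and that from Cd4-UMI cells, -0.38, did not pass. In the 3-week spleen Foxp3 was 3.76 higher than in CD8-UMI cells and 1.42 higher than in Cd4-UMI cells (SE 0.37, edgeR adjusted p = 0.00863), the latter a call lost without the third or the fourth library (1.25 and 1.24). In the 1-week kidney it was 0.98 over CD8-UMI cells, and 0.49 (edgeR adjusted p = 0.44) without the third library, and its difference from Cd4-UMI cells, -0.58, did not pass. Other listed genes also differed from Cd4-UMI cells. In the 1-week spleen Ctla4 (-0.70), Icos (-0.61), Cxcr5 (-0.65) and Tnfrsf4 (-0.42) were lower. In the 1-week kidney Tnfrsf4 (-1.28), Icos (-0.37) and Ctla4 (-0.33) were lower, Icos and Ctla4 not with TMM scaling. Tnfrsf4 was lower (-1.67) and Cxcr5 higher (2.20) in the matrix labelled 24-week kidney, and no such gene passed in the 3-week spleen.

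Maf and Ikzf2, transcription factors found in helper, regulatory and innate-like T cells, were higher than in CD8-UMI cells in all 4 matrices. Maf rose by 2.40, 2.39, 3.07 and 1.78 and Ikzf2 (Helios) by 1.83, 1.67, 1.38 and 0.97 on the log2 scale. Against Cd4-UMI cells Ikzf2 was higher in the 3-week spleen (2.41) and the matrix labelled 24-week kidney (2.50) but differed by 0.13 and -0.07 at 1 week, neither of which passed. Maf was lower than in Cd4-UMI cells of the 1-week spleen (-0.79) and 1-week kidney (-0.99), and its differences of 0.32 and 0.35 in the other matrices did not pass. In the 3-week spleen it passed without the fifth library (0.55).

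More cytotoxic genes were lower than higher against CD8-UMI cells, and more were higher than lower against Cd4-UMI cells. Of 11 listed genes, 8 were lower and 1 higher than in CD8-UMI cells of the 1-week spleen, 6 and 2 of 10 tested in the 3-week spleen, 6 and 2 in the matrix labelled 24-week kidney, and 5 and 2 in the 1-week kidney. Nkg7 read 387, 527 and 438 CPM in negative, 856, 1036 and 899 CPM in CD8-UMI and 177, 223 and 300 CPM in Cd4-UMI cells of the 1-week spleen, with the 3 populations apart from each other. Its log2 difference from CD8-UMI cells was -1.05, -0.72, -0.78 and -0.51 and from Cd4-UMI cells 0.91, 2.25, 1.90 and 0.53, all past the test. Klrk1, the activating receptor NKG2D, ran against the group and was higher in negative cells of both spleens and the matrix labelled 24-week kidney (0.52, 1.20 and 2.18). In the 1-week spleen the direction of Klrk1 turned to -0.17 when cells with Trdc, Zbtb16 or Klrb1c were left out.

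Gzma went opposite ways by matrix. It was lower in negative cells of the 1-week spleen, at 12.7, 98.9 and 51.3 CPM against 137, 128 and 219 CPM (-1.65, SE 0.18), and of the matrix labelled 24-week kidney (-2.91, SE 0.31), differed by -0.22 in the 3-week spleen, and was higher in the 1-week kidney, as given above. Against Cd4-UMI cells, 7, 7, 6 and 10 cytotoxic genes were higher in the 4 matrices and 1, 0, 0 and 0 lower. The lower gene was Gzmb in the 1-week spleen (-0.49, edgeR adjusted p = 0.0189), a call not made with TMM scaling (-0.42) nor without the first or second library (-0.16 and -0.48).

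Other genes were also lower in negative than in CD8-UMI cells. Dapl1, a gene of the naive T cell list, was lower by about 1 on the log2 scale in the first 3 matrices (-1.20, -0.98 and -1.09) and differed by -0.24 in the 1-week kidney, which did not pass. The rest of that list ran both ways. In the 3-week spleen Igfbp4 (1.07), S1pr1 (0.16) and Tcf7 (0.15) were higher, the last 2 not with TMM scaling, and Ccr7 was lower (-0.16). In the matrix labelled 24-week kidney Igfbp4 was higher (0.55), and Ccr7 (-0.33) and Klf2 (-0.15) were lower. Fam241a read 21.4, 25.9 and 30.2 CPM against 94.0, 86.4 and 111 CPM in the 1-week spleen and was lower by 1.92, 2.16 and 2.29 on the log2 scale in the first 3 matrices. The chemokine receptor Ccr9 was lower by 1.33 and 2.11 in the 3-week spleen and the matrix labelled 24-week kidney, and Plac8 by 1.48 and 1.55. In the 1-week spleen all 6 genes of dividing cells were lower, with a median of -0.44. Of 3 tested in the 3-week spleen and in the matrix labelled 24-week kidney, Tubb5 was lower (-0.38 and -0.43) and Stmn1, a microtubule regulator, higher (0.99 and 0.95) in both. Only Pclaf of the 6 was called in the 1-week kidney (-0.43), but not without the first library (-0.37), and it differed by 0.11 in cells of at least 3000 UMIs.

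In the 1-week kidney, negative cells had more transcripts of genes of resting and recirculating T cells. Of 7 such genes, 5 were higher and none lower, with a median of 1.12. Lef1, a transcription factor of naive T cells, read 105, 128 and 84.5 CPM in negative and 50.2, 32.2 and 47.8 CPM in CD8-UMI cells (log2 fold change 1.14, SE 0.13, edgeR adjusted p = 7.02e-08). S1pr1, the receptor that guides exit from tissue, read 154, 195 and 108 CPM against 62.9, 58.6 and 46.8 CPM (1.37, SE 0.10, edgeR adjusted p = 3.30e-12). Neither pair of groups overlapped. In the 1-week spleen Lef1 differed by -0.09 and S1pr1 by 0.01, and neither passed. Gzmb, granzyme B (-0.83), the checkpoint receptor Pdcd1 (-0.88) and the chemokine receptor Cxcr6 (-0.81) were lower in negative cells of the kidney. Gzma, as given above, the transcription factor Eomes (0.95) and the costimulatory receptors Tnfrsf4 (1.30) and Icos (0.29) were higher. Icos was not called without the first or the third library (0.33 and 0.23), nor Eomes without cells with Trdc, Zbtb16 or Klrb1c (0.45).

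Differences in T cell receptor genes were small. Of the 7 genes of the complex, 4 were higher and 1 lower in the 1-week spleen, 5 were higher in the 3-week spleen and 4 in the matrix labelled 24-week kidney, with medians of 0.12, 0.18 and 0.24 beside 0.10, 0.12 and 0.13 over all genes tested. With TMM scaling only Trac stayed higher in the 1-week spleen and the matrix labelled 24-week kidney and only Cd247, Trbc1 and Trbc2 in the 3-week spleen, and Cd3d was lower in all 3. In the 1-week kidney Cd3e and Cd3g were lower and Cd247 higher, and the fall of Cd3e (-0.30) was not called without the first library (-0.30, edgeR adjusted p = 0.085). B cell genes were higher in 7 of 8 cases in the 1-week spleen, with a median of 0.31, were lower in 3 of 8 in the 3-week spleen, were higher in 5 of 8 in the matrix labelled 24-week kidney (median 0.45), and none of 3 tested passed in the 1-week kidney. With TMM scaling these counts were 6 higher, 6 lower, 3 higher and none.

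Between 1 and 3 weeks in the spleen, 4059 of 8153 genes differed among negative cells (49.8%; 2705 or 33.2% higher and 1354 or 16.6% lower at 3 weeks). The median over all genes was 0.19, and with TMM scaling the calls were 1688 higher and 1923 lower. The 2 time points are separate sets of libraries, so sequencing batch and time cannot be told apart. The negative cells also differed in depth, at a median of 2142 UMIs at 1 week and 3106 at 3 weeks. Which cells count as negative depends on depth, and the part of this in the changes was not tested. Gamma-delta genes were higher at 3 weeks in 5 of 5 cases, with a median of 0.93. Trdc rose by 1.14 (SE 0.11, edgeR adjusted p = 5.88e-08) and was above every 1-week library in all 5 libraries, and Tcrg-C4 rose by 1.18. Tcrg-C1 and Tcrg-C2 were not called with TMM scaling, nor without single libraries (down to 0.42 and 0.29). Zbtb16 rose by 1.06 and Klrb1c differed by -0.04.

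The helper genes split over this time, and more of the list fell than rose. Zbtb7b rose by 0.74 and Cd40lg by 1.47, from 17.1, 8.88 and 13.3 CPM to 31.2, 44.0, 44.0, 22.1 and 40.7 CPM. Foxp3 fell by 1.56, from 34.3, 33.2 and 43.2 CPM to 3.12, 16.0, 10.4, 17.5 and 16.3 CPM, the checkpoint receptor Ctla4 by 1.59 and Tnfrsf4 by 2.72. No library of 1 time point overlapped with the other for any of these 5 genes. Cxcr5 (-2.16) and Izumo1r (-1.02) were also lower at 3 weeks. Icos did not pass (edgeR adjusted p = 0.997). Naive genes were higher in 6 of 7 cases, with Lef1 up by 0.68 and S1pr1 by 0.58, and Klf2 was lower (-0.39), a call lost without the first 1-week library (-0.31).

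Genes of dividing cells were lower at 3 weeks in 5 of 6 cases, and Tubb5 rose by 0.29, a call not made with TMM scaling (0.12). The proliferation gene Mki67 read 32.1, 42.4 and 83.2 CPM at 1 week and 3.12, 1.60, 5.96, 1.84 and 4.89 CPM at 3 weeks (log2 fold change -3.86, SE 0.37, edgeR adjusted p = 4.62e-08). The histone gene Hist1h1b fell by 5.04, Gzmb by 3.44 and S100a4, abundant in activated T cells, by 3.50. Cytotoxic genes as a list split, with 3 of 10 tested higher and 3 lower at 3 weeks (3 and 5 with TMM scaling). Over all genes tested, 33.2% were higher and 16.6% lower, so the share of higher cytotoxic genes was near that of all genes. The granule pore protein gene Prf1 rose by 1.11 and the transcription factor gene Runx3 by 1.09. All 8 B cell genes also fell, Ms4a1 (CD20) from 161, 197 and 122 CPM to 20.3, 18.4, 41.0, 28.6 and 30.2 CPM, and the part of free B cell RNA in this was not tested.

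At 1 week, 2707 of 9739 genes differed between negative cells of the graft and of the spleen (27.8%; 1642 or 16.9% higher and 1065 or 10.9% lower in kidney, and 1528 and 1279 with TMM scaling), and 1703 did without the third kidney library. Cytotoxic genes were higher in the graft in 8 of 11 cases and lower in none, with a median of 1.32. Nkg7 read 1525, 1406 and 1454 CPM in the graft (log2 fold change 1.70, SE 0.13, edgeR adjusted p = 4.28e-07), Gzma rose by 4.03 and Gzmb by 2.66. Pdcd1 read 150, 93.4 and 178 CPM in the graft and 4.23, 7.61 and 7.36 CPM in the spleen (4.53, SE 0.24, edgeR adjusted p = 1.21e-08), and Ctla4 was higher by 2.24. All 6 genes of dividing cells were higher in the graft, with a median of 2.26. At least 2 of them other than Tubb5 were found in 21.9% of thinned negative cells in the graft (25.3% of CD8-UMI cells) and 2.00% in the spleen (3.36%).

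NK genes were higher in the graft in 4 of 6 cases, Ncr1 by 1.61 and Tyrobp by 1.37, whereas Klrb1c was lower by 0.96, a call lost without the first or second kidney library (-0.62 and -0.86) or the second spleen library (-0.94). Trdc was lower in the graft by 1.36 (SE 0.17, edgeR adjusted p = 3.73e-05), and Zbtb16 went from 90 UMIs in the spleen to 2 UMIs in the graft. All 7 naive genes and all 8 B cell genes were lower in the graft. The heat shock genes Hspa1a and Hspa1b, near-identical copies, held 184, 387 and 265 CPM (Hspa1a) in the graft and 3 UMIs in all in the spleen. Graft and spleen were dissociated differently, with collagenase and by mechanical force, and tissue and dissociation cannot be told apart. The negative cells also differed in depth, at a median of 1712 UMIs in the graft and 2142 in the spleen, and the part of this was not tested.

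**Figure D3:**
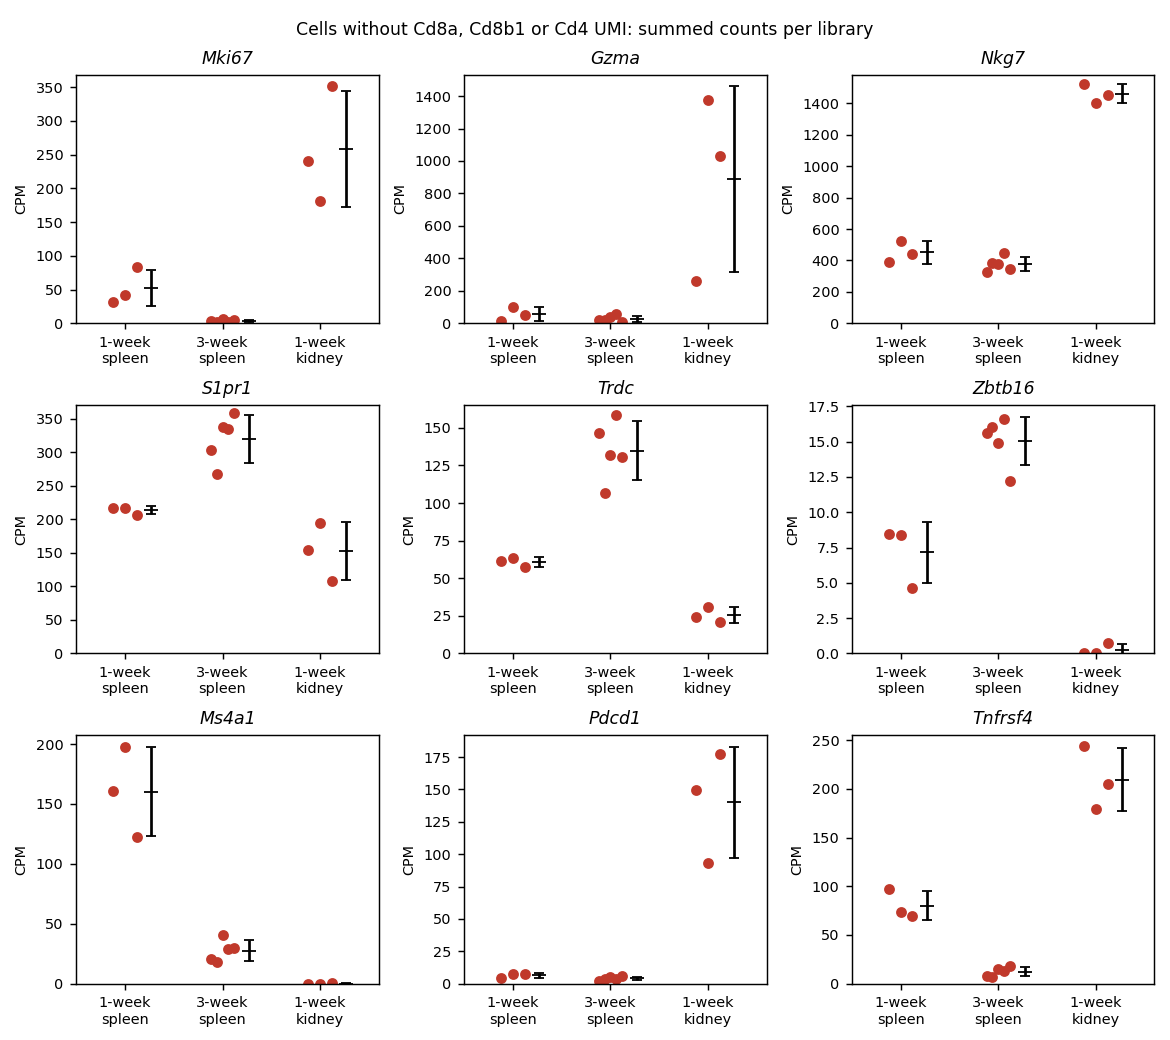
CPM of 9 genes (Mki67, Gzma, Nkg7, S1pr1, Trdc, Zbtb16, Ms4a1, Pdcd1 and Tnfrsf4) in negative cells (vertical axes) of the 1-week spleen, 3-week spleen and 1-week kidney. Each point is 1 library, and bars show the mean ± SD of libraries. Mki67 and Ms4a1 are lower at 3 weeks than at 1 week in the spleen, and Pdcd1 is higher in the kidney (93.4 to 178 CPM) than in the 1-week spleen (4.23 to 7.61 CPM).

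Whether the step from CD8-UMI to negative cells was itself different in graft and spleen was tested by an interaction. It was called for 760 of 10870 genes (6.99%; 309 or 2.84% more positive and 451 or 4.15% more negative in the kidney, and 389 and 285 with TMM scaling), and for 468 without the first spleen library. The step was more positive in the kidney for Gzma by 3.23 (SE 0.37, edgeR adjusted p = 4.75e-08), Ncr1 by 2.32, Tyrobp by 1.05, Lef1 by 1.20 and S1pr1 by 1.35. It was more negative for Tcrg-C2 by -3.19, Gzmb by -0.83, Foxp3 by -1.27 and Tnfrsf4 by -1.21. For Trdc it was more positive by 0.93, a call lost without the first or second kidney library (0.97 and 0.69) or the third spleen library (0.48). For Zbtb7b, Cd40lg and Klrb1c the difference between tissues, -0.66, 0.02 and 0.71, did not pass.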

How the data were processed

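Single-cell RNA sequencing counts were analysed as the authors deposited them: raw UMI counts per gene and cell, 1 matrix for each tissue and time point of CD8+ T cells. Per the labels and the study's methods, reads were processed with Cell Ranger (version not given in the sources used here) against mm10, cells were filtered by the authors on UMIs, expressed genes and mitochondrial content, and cell classes were assigned by hand to Seurat clusters. Groups followed the sample labels. The tag in each barcode gave the library, which was taken as 1 mouse, and p-values measure the spread between these libraries.

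Cells were split by raw UMIs of Cd8a, Cd8b1 and Cd4. The rule, the 4 matrices and the gene lists were chosen with earlier results of these data known. UMIs were summed per library and population and tested with the quasi-likelihood method of edgeR 4.0.16 (R 4.3.3) after filterByExpr, with plain library totals, the library as a block in comparisons within libraries, and Benjamini-Hochberg adjustment over all genes tested at a threshold of 0.05. Levels are CPM of these sums. The block was part of the design, since both populations came from 1 library. For shares, each cell was thinned to 1000 UMIs with a fixed seed, which left out 256 negative, 28 CD8-UMI and 29 Cd4-UMI cells of the 1-week spleen and 41, 4 and 8 of the 3-week spleen, and paired differences were tested by exact sign-flip permutation over 14 libraries (Python 3.11.15, scipy 1.17.1).

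Named genes were Cd3e, Trdc, Klrb1c, Zbtb16, Cd79a and Lyz2, members of the marker lists, and the 8 genes per direction with the largest log2 fold change among those called with at least 50 CPM in the higher population, without mitochondrial, ribosomal, immunoglobulin and T cell receptor variable genes. The kidney tubule list had lost Ass1 and Napsa after values were seen. Alternatives were TMM scaling, DESeq2 1.42.0, no filter on low counts, no library block, other thinning, a minimum of 3000 UMIs, subsets of cells and leaving out each library. The fits were tested on simulated data. No doublet caller was run.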

Additional observations from a re-analysis of the deposited data

Results flagged for a closer look

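The difference between negative and CD8-UMI cells was itself different in the 1-week kidney and the 1-week spleen for 760 genes by edgeR's interaction test, and 25 of them are given here. Values here are log2 differences of negative minus CD8-UMI cells, kidney minus spleen. On the positive side were the NK receptor gene Klra8 at 5.31, Gzma at 3.23, Ncr1 at 2.32, Tyrobp at 1.05, Nkg7 at 0.55 and Klrd1 at 0.52, and also the interferon-induced gene Ifitm1 at 3.08, the transcription factor gene Mef2c at 2.00 and the interleukin-6 receptor gene Il6ra at 1.84. Gzmb was at -0.83, and Klrb1c (0.71) did not pass. A positive value need not mean a gene higher in negative cells of the kidney. Within the 1-week kidney Nkg7 (-0.51) and Klrd1 (-0.49) were lower in negative than in CD8-UMI cells, and Ifitm1 (-0.05) did not pass. Genes of resting T cells were also positive, with S1pr1 at 1.35, Lef1 at 1.20 and the lymph node homing receptor gene Ccr7 at 0.62.

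Gamma receptor genes stood on the negative side, with Tcrg-C2 at -3.19, Trgv2 at -3.05 and Tcrg-C4 at -1.39, whereas the delta chain Trdc was at 0.93. Negative values were also found for Rgs16, a regulator of G protein signalling, at -1.89, Cxcr6 at -1.84, the chemokine gene Xcl1 at -1.45, Foxp3 at -1.27, Fgl2 at -1.25, Tnfrsf4 at -1.21, Izumo1r at -0.87 and Ier5l at -2.04, whereas Cd40lg (0.02) and Zbtb7b (-0.66) did not pass. Single libraries decided 5 of these calls. Ier5l was lost without the first or second spleen library (-1.87 and -1.79), Klrd1 without the third kidney (0.18) or the first spleen library (0.40), and Rgs16 without the first spleen library (-1.77). Tcrg-C4 was lost without any of 4 libraries (-1.35 to -1.02), and Trdc without any of 3 (0.48 to 0.97). The kidney libraries held 198 to 1226 negative cells and the spleen libraries 1332 to 2085. Among the 5 libraries of the 3-week spleen, none stood apart from the others in any of 7 shares tested with Dixon's test, and chance alone would mark about 1 in 20.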

How the results depend on the processing

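The numbers of genes called moved with the processing more than the named genes did. In this paragraph counts are for the 1-week spleen, the 3-week spleen, the matrix labelled 24-week kidney and the 1-week kidney, in this order. Against CD8-UMI cells, DESeq2 called 623, 660, 435 and 312 genes, a fit with no library block (no pairing of the populations) 487, 991, 660 and 117, and sums over cells thinned to 1000 UMIs 1083, 611, 429 and 385. With cells of at least 3000 UMIs, 770 and 1006 genes were called in the spleens and 147 in the 1-week kidney. Leaving out 1 library at a time gave 1252 to 1313, 1501 to 1560, 822 to 1069, and 288 to 557. Against Cd4-UMI cells, DESeq2 called 328, 249, 200 and 388, the fit with no block 71, 201, 148 and 45, thinned sums 167, 137, 84 and 134, and leaving out 1 library 337 to 576, 314 to 385, 217 to 350, and 221 to 440.

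In alternatives added after the data were seen, leaving out negative cells with Trdc, Zbtb16 or Klrb1c gave 928 genes against CD8-UMI cells of the matrix labelled 24-week kidney, and 81 and 70 genes against Cd4-UMI cells of the 3-week spleen and that matrix. The counts of this setting in the other matrices are not given here. Thinned sums gave 2355 genes between 3 weeks and 1 week (3469 to 3892 without single libraries) and 1560 between kidney and spleen (1703 to 2857). For the interaction, DESeq2 called 363, thinned sums 454, the fit with no block 69, and leaving out 1 library 468 to 672. Thinning leaves fewer UMIs, and the cause of the other moves was not tested.

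Without thinning, the difference in the share of cells with Cd3e was -10.8 points and past the threshold, that for Cd79a was -0.936 and that for Lyz2 -0.0733. Lyz2 was 0.204 at 500 UMIs and 0.309 in cells of at least 3000 UMIs, short of the threshold. Leaving out the matrix labelled 24-week kidney, an alternative also added after the data were seen, changed the call of none of the 6 shares (Trdc 4.20 points, Klrb1c 2.29, Zbtb16 0.892 and Lyz2 0.616). Of 4692 alternative values for 407 named genes and comparisons, 4335 kept their direction and side of the threshold, 285 fell short of it, 65 newly passed it and 7 changed sign. The latter were Cd3d in the 1-week spleen without cells with B cell or myeloid UMIs (0.068), Klrk1 in the 1-week spleen (-0.17), Ccr7 in the 3-week spleen (0.058), Cd79a in the matrix labelled 24-week kidney (-0.016) and Fcer1g in the 1-week kidney (-0.19) without cells with Trdc, Zbtb16 or Klrb1c, and, at 3000 UMIs or more, Trbc2 in the 1-week spleen (-0.043) and Pclaf in the 1-week kidney (0.11). Genes removed by the definition of such a subset were not computed in it.

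Libraries of kidney and spleen share tag numbers, and the deviations of same-numbered libraries correlated at 0.113, 0.0231 and 0.167 across genes. These values do not settle whether the same number marks the same recipient. The main fit did not take the numbers as pairs. With the tag number as a replicate block, a fit also added after the data were seen, 2901 genes were called between the tissues. Of the 6 libraries, 5 correlated best with their own number, the exception being the second spleen library. The design cannot separate a CD8 or CD4 cell with none of these transcripts captured from a cell that does not express them.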

Other observations

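Genes of 2 further lists separated negative from CD8-UMI cells. Gata3, a transcription factor of helper T cells and innate lymphoid cells, was higher in negative cells of all 4 matrices, with log2 fold changes of 0.93 in the 1-week spleen, 0.94 in the 3-week spleen, 1.22 in the matrix labelled 24-week kidney and 0.66 in the 1-week kidney, by edgeR's test. It read 51.4, 65.7 and 52.3 CPM against 29.1, 28.7 and 30.3 CPM in the 1-week spleen, without overlap. Rora, which encodes the nuclear receptor ROR-alpha, was higher by 1.66, 1.52, 1.78 and 1.21 in the same order. Il1rl1, the interleukin-33 receptor ST2, was higher in the 1-week spleen (1.58) and differed by -0.33 in the 1-week kidney, where it did not pass. Of the list of 6 genes, 3 of 4 tested, 2 of 2, 2 of 2 and 2 of 4 were higher, and none was lower.

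Of the 8 genes listed for innate-like T cells, 3 were tested in the first 3 matrices and 2 in the 1-week kidney. The chemokine receptor gene Cxcr6 was higher in negative cells of the first 3 matrices (1.04, 1.29 and 1.23) and lower in the 1-week kidney (-0.81). Il18r1, a chain of the interleukin-18 receptor, was lower in the 1-week spleen (-0.24) and higher in the matrix labelled 24-week kidney (0.75).

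Of the 8 myeloid genes, 2 were higher in each matrix and 1, S100a8, was lower in the 1-week spleen (-0.36). S100a8 was higher in the 3-week spleen (0.91). Lyz2 was higher in the 1-week kidney (0.63) and differed by 0.02 in the 1-week spleen. No gene of the platelet and red cell list was high enough to be tested.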
